A study of Rattus norvegicus with 6 samples.

Results

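The genes described here are 9 transcripts of neutrophils and granulocytes measured in rat pancreas: S100a8, S100a9, Cxcr2, Csf3r, Mmp8, Mmp9, Mpo, Ncf1 and Fpr1. They were chosen by gene name, and all 9 were found among the 34001 genes of the deposited table. RNA was sequenced from 6 Sprague-Dawley rats, an outbred strain, in 3 groups of 2 rats each, all sampled 24 h after surgery. In the TP+hucMSC-Exs group traumatic pancreatitis was made by crushing the gland under an impactor of 3 cm2 at 10 kg, and exosomes of human umbilical cord mesenchymal stem cells were given into the tail vein at 10 μg per 100 g of body weight. The TP group had the same crush and 1 ml of saline. The Control group had the abdomen opened and the pancreas turned with swabs, and 1 ml of saline. The replicates are described as separate rats. Whole tissue was used, so fewer cells of a type and less RNA per cell cannot be told apart.

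Neutrophils are short-lived white cells that leave the blood for injured tissue within hours, and they are among the first cells to enter an inflamed pancreas. S100a8 and S100a9 encode the 2 subunits of calprotectin, a calcium-binding complex that fills the cytosol of neutrophils, is also made by monocytes, withholds zinc and manganese from microbes, and acts on the receptors Tlr4 and Ager once released. Cxcr2 is the receptor for neutrophil-attracting CXC chemokines, Csf3r the receptor for granulocyte colony-stimulating factor, and Fpr1 a receptor for formylated bacterial and mitochondrial peptides. Mmp8 and Mmp9 are a collagenase and a gelatinase of neutrophil granules. Mpo, myeloperoxidase, makes hypochlorous acid and is transcribed mainly in marrow precursors. Ncf1 encodes a cytosolic subunit of the NADPH oxidase, which neutrophils share with macrophages.

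S100a8 and S100a9 lie next to each other on rat chromosome 2 in the RefSeq assembly GRCr8, with 0 annotated genes between them. A RefSeq promoter entry was matched by symbol for 7 of the 9 genes, and not for S100a8 and Mmp9. The 250 bases before the transcription start are shown for S100a9 and Cxcr2, a calprotectin subunit and a chemokine receptor whose transcripts were highest in the same libraries. The windows are chr2:178490623-178490872 on the minus strand and chr9:83178395-83178644 on the plus strand of GRCr8, written 5′ to 3′ along the gene. Capitals mark TATAAA (the TATA box), GCAAT (part of the site bound by C/EBP factors) and AGGAAG (a core of ETS factors such as PU.1), searched on both strands.
S100a9: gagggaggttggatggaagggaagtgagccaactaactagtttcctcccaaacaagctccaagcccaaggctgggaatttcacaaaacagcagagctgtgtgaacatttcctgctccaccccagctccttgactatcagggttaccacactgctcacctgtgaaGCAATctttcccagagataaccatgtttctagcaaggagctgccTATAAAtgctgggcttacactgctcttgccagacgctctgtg
Cxcr2: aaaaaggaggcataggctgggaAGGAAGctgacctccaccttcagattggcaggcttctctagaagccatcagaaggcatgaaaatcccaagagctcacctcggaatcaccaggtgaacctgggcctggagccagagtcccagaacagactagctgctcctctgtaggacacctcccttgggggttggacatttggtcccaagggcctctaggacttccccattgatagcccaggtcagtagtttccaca
Positions are counted from -1, the base before the start. In S100a9 the TATA box lay at -42 to -37 and GCAAT at -86 to -82, and in Cxcr2 AGGAAG lay at -228 to -223; these matches did not overlap. Of 27457 rat promoter windows of this length, 13.1% held TATAAA, 23.4% GCAAT and 29.4% AGGAAG. Among the 7 windows found, 2 held TATAAA (Mmp8 and S100a9), 3 held GCAAT (Csf3r, Mmp8 and S100a9) and 4 held AGGAAG (Csf3r, Cxcr2, Mmp8 and Mpo). These are letter matches, not tested binding sites.

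All levels are TPM, a length-corrected share of each library's transcripts, which can be compared between genes. TPM keep no read depth, so no counting error could be given. The libraries were unlike each other beyond the groups. Acinar digestive enzymes took 61.5% and 56.4% of TPM in TP+hucMSC-Exs rats, 70.5% and 19.1% in TP rats, and 78.1% and 74.8% in Control rats. TP replicate 2 stood apart: it held 741 TPM of the fat-cell hormone Adipoq against 0.10 to 1.42 TPM in the other 5 libraries, and its median gene lay 3.00 log2 units above the Control mean, against 0.00 in TP replicate 1 and 0.97 and 1.22 in TP+hucMSC-Exs rats. For the neutrophil genes that were tested, fold changes against or in the TP group are given with and without it. Medians and counts of the lists of other genes, and correlations with calprotectin, are given only with it.

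Calprotectin was the most abundant product of the 9 genes. S100a8 (ENSRNOG00000011557) stood at 27.6 and 51.8 TPM in TP+hucMSC-Exs rats, at 1.77 and 238.74 TPM in TP rats, and at 0.21 and 0.75 TPM in Control rats. Both exosome-treated libraries and TP replicate 2 were high, while TP replicate 1 lay close to the Control libraries. S100a9 (ENSRNOG00000011483) stood at 26.2 and 45.7 TPM in TP+hucMSC-Exs rats, at 1.08 and 197 TPM in TP rats, and at 0.25 and 1.87 TPM in Control rats. TP replicate 1 here lay between the Control values. The subunits were of similar level in the injured rats: the ratio of S100a8 to S100a9 was 1.055 and 1.13 in TP+hucMSC-Exs rats, 1.64 and 1.21 in TP rats, and 0.84 and 0.401 in Control rats. Together they averaged 75.6 ± 30.9 TPM in the TP+hucMSC-Exs group, 219 ± 306 TPM in the TP group and 1.54 ± 1.53 TPM in the Control group (SD, n = 2 each). They made up 82.5% and 80.6% of the summed TPM of the 9 genes in TP+hucMSC-Exs rats, 66.7% and 70.6% in TP rats, and 66.7% and 46.0% in Control rats.

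**Figure D1:**
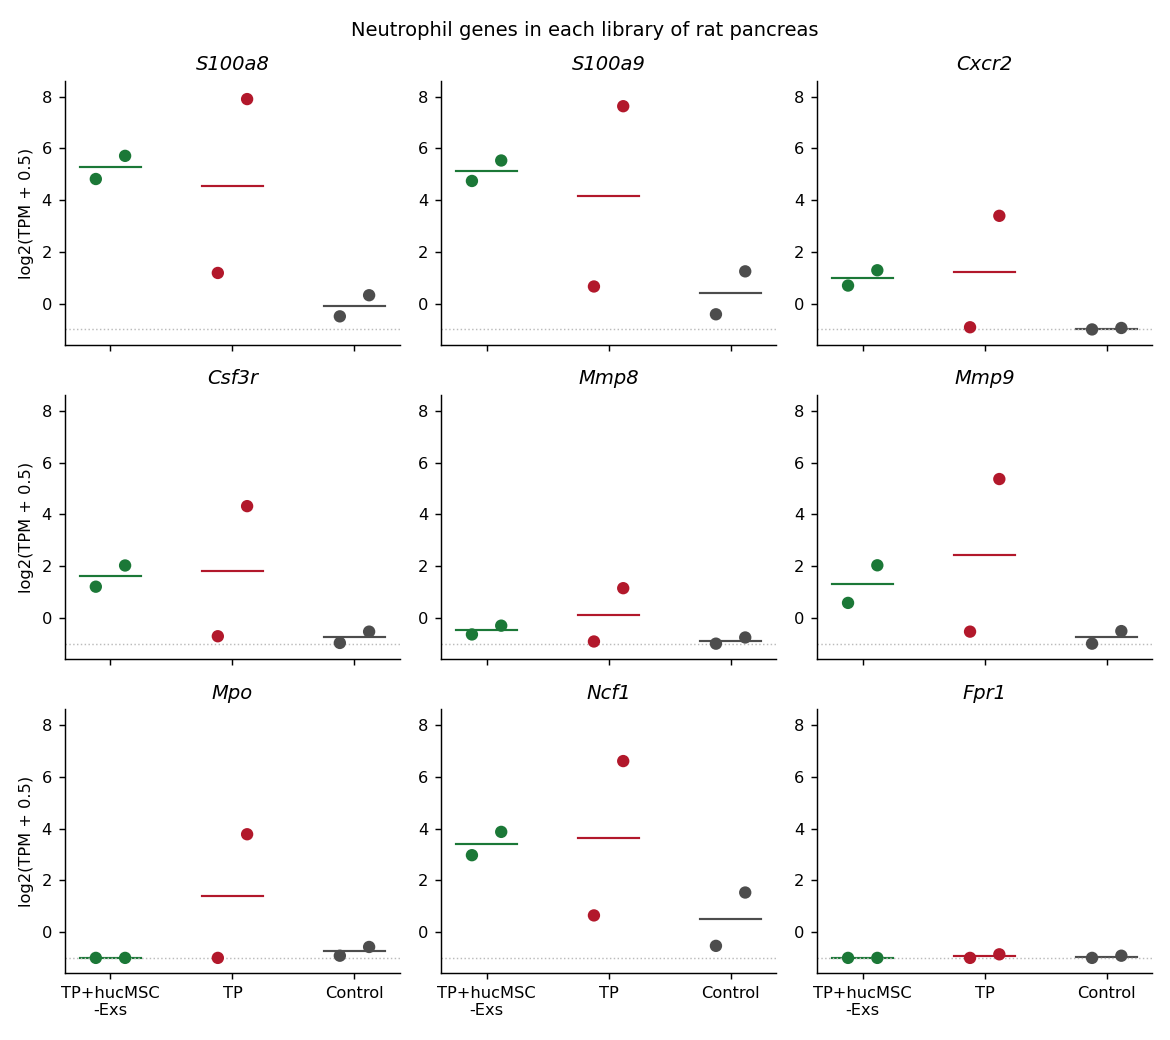
Levels of the 9 genes on the scale of log2(TPM + 0.5), with 1 point per library (replicate 1 left, replicate 2 right), a short line at the group mean and a dotted line at the value of 0 TPM. TP replicate 2 is the highest point for every gene, Mpo and Fpr1 sit at the dotted line in both TP+hucMSC-Exs libraries, and TP replicate 1 lies near the Control points.

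The receptors were much lower. Csf3r (ENSRNOG00000008759) stood at 1.80 and 3.56 TPM in TP+hucMSC-Exs rats, at 0.11 and 19.4 TPM in TP rats, and at 0.01 and 0.19 TPM in Control rats. Cxcr2 (ENSRNOG00000014269) stood at 1.12 and 1.94 TPM in TP+hucMSC-Exs rats, at 0.03 and 9.99 TPM in TP rats, and at 0 and 0.02 TPM in Control rats. Both receptors were present at 1 TPM or more in the treated libraries and TP replicate 2, and near 0 in the other 3. Fpr1 (ENSRNOG00000011174) was not seen above 0.05 TPM in any library: it was listed at 0 in both TP+hucMSC-Exs libraries, at 0 and 0.05 TPM in TP rats, and at 0 and 0.03 TPM in Control rats.

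Ncf1 (ENSRNOG00000001480), the oxidase subunit, stood at 7.33 and 14.1 TPM in TP+hucMSC-Exs rats, at 1.06 and 96.9 TPM in TP rats, and at 0.19 and 2.38 TPM in Control rats. Of the proteases, Mmp9 (ENSRNOG00000017539) stood at 0.99 and 3.58 TPM in TP+hucMSC-Exs rats, at 0.19 and 40.6 TPM in TP rats, and at 0 and 0.20 TPM in Control rats. Mmp8 (ENSRNOG00000009907) stood at 0.14 and 0.31 TPM in TP+hucMSC-Exs rats, at 0.03 and 1.71 TPM in TP rats, and at 0 and 0.09 TPM in Control rats. For these 3 genes the treated libraries lay above both Control libraries and below TP replicate 2. Mpo (ENSRNOG00000008310) had another pattern: it was listed at 0 in both TP+hucMSC-Exs libraries, at 0 and 13.2 TPM in TP rats, and at 0.03 and 0.17 TPM in Control rats. Of the genes other than Fpr1, Mpo was the 1 that the treated libraries lacked.

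For 7 of the 9 genes the injured libraries followed 1 order, from TP replicate 2 through TP+hucMSC-Exs replicate 2 and replicate 1 down to TP replicate 1, the exceptions being Mpo and Fpr1. Of the 11477 genes with a mean of at least 1 TPM, 75.9% had the same order, so it does not set these genes apart. Likeness to calprotectin was measured as Pearson's r over the 6 libraries with the mean log2(TPM + 0.5) of S100a8 and S100a9. Among the other 7 genes, r was 0.973 for Csf3r, 0.969 for Ncf1, 0.965 for Cxcr2, 0.920 for Mmp9 and 0.647 for Mpo. The most alike genes outside the 9 were Pcbp4, Vmp1, Cnih4, Fnbp1l and Cr1l, with r between 0.9997 and 0.9999, and 31.8% of all genes tested reached 0.95. The points share libraries whose median gene also differs, and r is given as a description.

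Injury was compared with sham surgery by the TP and Control groups. Of the 9 genes, 7 passed the filter of a mean of at least 1 TPM (Mmp8 and Fpr1 did not), which they did mainly through TP replicate 2, and 0 of these 7 had an adjusted p below 0.05, against 0.0523% of all genes called higher. At an unadjusted p below 0.05 there were 4 of the 7, against 4.06% of all genes. The test was limma on log2(TPM + 0.5), with p-values adjusted over 11477 genes. S100a8 had a log2 fold change of 4.63 ± 1.42 (SE, n = 2 per group; limma adjusted p = 0.492) and S100a9 of 3.73 ± 1.42 (limma adjusted p = 0.555). The other 5 ranged between 2.14 for Mpo and 3.17 for Mmp9, each with limma adjusted p = 0.555. The median of the 7 was 3.13, against 1.495 over all genes tested. Both TP libraries lay above both Control libraries for S100a8 and Cxcr2, 2 of the 7, against 23.1% of all genes. For Cxcr2 this rests on 0.03 TPM in TP replicate 1, against 0 and 0.02 TPM in Control rats. Without TP replicate 2 the log2 fold change of S100a8 was 1.27 and that of S100a9 0.245, against a median of 0.00 over all genes. That of Cxcr2 was 0.06, Csf3r 0.04, Mmp9 0.22, Ncf1 0.15 and Mpo -0.25. Without TP replicate 1 that of S100a8 was 7.99 and that of S100a9 7.21, against a median of 3.00 over all genes.

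**Figure D2:**
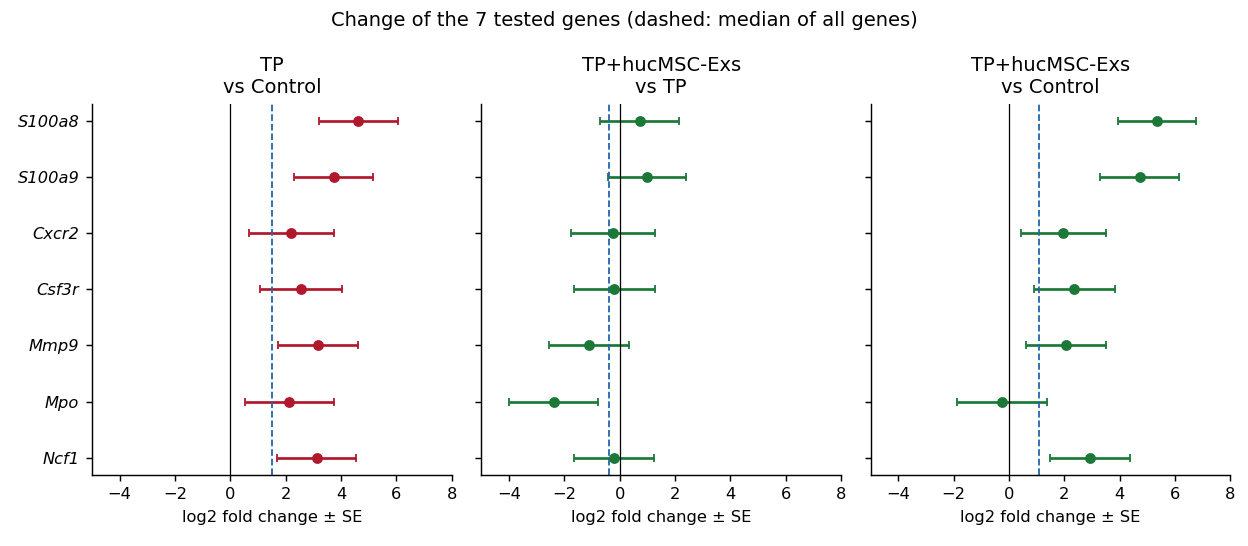
Log2 fold change with its SE for the 7 tested genes in the 3 comparisons, on the scale of log2(TPM + 0.5), with n = 2 libraries per group. S100a8 and S100a9 lie farthest to the right in both comparisons with Control, the dashed line marks the median of all 11477 genes, and none of the 7 passed an adjusted p of 0.05.

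Exosome treatment was compared with untreated injury by the TP+hucMSC-Exs and TP groups. The treated libraries lay between the 2 TP libraries for S100a8, S100a9, Cxcr2, Csf3r, Mmp8, Mmp9 and Ncf1, and the 2 TP values lay further apart than the 2 treated values. For 0 of the 7 tested genes did both treated rats lie above both TP rats, against 5.09% of all genes, and for 0 below, against 1.62%. S100a8 had a log2 fold change of 0.72 ± 1.42 (SE, n = 2 per group; limma adjusted p = 1.0) and S100a9 of 0.99 ± 1.42 (limma adjusted p = 1.0). For Cxcr2, Csf3r and Ncf1 it was -0.25, -0.19 and -0.20, for Mmp9 -1.11 and for Mpo -2.39, all with limma adjusted p = 1.0. By limma 0 of the 7 were called and 0 had an unadjusted p below 0.05, against 0.0697% and 1.32% of all genes (called higher 0.0523%, called lower 0.0174%); with a single TP library in the fit the count was 1 or 7. The median of the 7 was -0.20, against -0.375 over all genes. The small negative values of Cxcr2, Csf3r and Ncf1 turned positive with median-of-ratios scaling (0.50, 0.49 and 0.22). The direction depended on which TP rat was used: S100a8 stood 2.64 lower on the log2 scale against TP replicate 2 alone (limma adjusted p = 0.0116, with 83.1% of all genes called) and 4.08 higher against TP replicate 1 alone (limma adjusted p = 0.0446, with 1.91% called). Over 15 alternatives its limma adjusted p ran from 0.0116 to 1.0.

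Treated injury was compared with sham surgery by the TP+hucMSC-Exs and Control groups, where the libraries within each group were more alike. S100a8 had a log2 fold change of 5.35 ± 1.42 (SE, n = 2 per group), the largest of the 7 and just outside the threshold (limma adjusted p = 0.0714). S100a9 had 4.72 ± 1.42 (limma adjusted p = 0.224). Ncf1 had 2.92 ± 1.43, Csf3r 2.36 ± 1.47, Mmp9 2.06 ± 1.46 and Cxcr2 1.96 ± 1.53, and Mpo had -0.25 ± 1.62 (limma adjusted p between 0.800 and 0.920). Of the 7, 0 were called, against 0.209% of all genes called higher, and the median was 2.36, against 1.09 over all genes. At an unadjusted p below 0.05 there were 3, against 2.95% of all genes. Both treated libraries lay above both Control libraries for 6 of the 7, against 86.9% of all genes, and Mpo lay below, against 1.63%. The Mpo difference lay near 0 TPM: both treated libraries were listed at 0, and the Control libraries at 0.03 and 0.17 TPM. Relative to the median gene, which was itself higher, S100a8 was 4.25 and S100a9 3.63 log2 units higher. S100a8 passed when its groups were compared without the TP libraries (limma adjusted p = 0.00988), but so did 52.8% of all genes, and its adjusted p ran from 0.00988 to 1.0 over 15 alternatives.

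Because the libraries held different amounts of leukocyte RNA, the genes were also set against Ptprc, the CD45 antigen of all leukocytes, a scaling chosen after the values were seen. S100a8 and S100a9 together stood at 26.4 and 28.9 times the TPM of Ptprc in TP+hucMSC-Exs rats, at 11.4 and 14.4 times in TP rats, and at 5.11 and 0.668 times in Control rats. On this ratio the 3 groups did not overlap, and the 2 TP libraries, far apart in TPM, were close. Over Cd68, a lysosomal protein of macrophages, the ratios were 2.81 and 3.06 in TP+hucMSC-Exs rats, 0.908 and 1.91 in TP rats, and 0.767 and 0.755 in Control rats. Over Lyz2, a lysozyme of macrophages and granulocytes, they were 0.161 and 0.150 in TP+hucMSC-Exs rats, 0.117 and 0.118 in TP rats, and 0.0850 and 0.0253 in Control rats. S100a8, S100a9, Cxcr2 and Csf3r, 4 of the 7 genes, were higher in both treated libraries than in both TP libraries over each of the 3 denominators, against 3.53% of all genes over Ptprc, 4.6% over Cd68 and 1.52% over Lyz2. Over Lyz2, Mmp9 and Ncf1 were lower in both treated rats than in both TP rats, against 11.9% of all genes. Ncf1 over Ptprc overlapped, at 3.59 and 4.19 in TP+hucMSC-Exs rats and 4.24 and 3.21 in TP rats. Mmp9 over Ptprc overlapped too, at 0.485 and 1.06 in TP+hucMSC-Exs rats and 0.760 and 1.35 in TP rats. Of 9 denominators computed for calprotectin, 6 kept the treated libraries above the TP libraries (Ptprc, Cd68, Lyz2, Csf3r, Itgb2 and S100a4), and 3 did not (Lcn2, Fcnb and S100a6). Over Fcnb, a ficolin of monocytes and granulocytes, the ratios were 4.01 and 4.48 in TP+hucMSC-Exs rats, 7.92 and 3.87 in TP rats, and 15.3 and 4.94 in Control rats. Against Control, both TP rats were higher for 6 of the 7 genes over Ptprc (all but Mpo; 3.39% of all genes), for 3 over Cd68 (S100a8, Cxcr2 and Mmp9; 1.33%) and for 4 over Lyz2 (S100a8, Cxcr2, Csf3r and Mmp9; 1.73%). The Cxcr2 ratios here rest on 0.03 TPM in TP replicate 1 and on 0 and 0.02 TPM in Control rats. Csf3r and Mmp9 were low too, at 0.11 and 0.19 TPM in TP replicate 1 and at most 0.19 and 0.20 TPM in Control rats. Without a denominator, S100a9, Csf3r, Mmp9 and Ncf1 were lower in TP replicate 1 than in Control replicate 2. Both treated rats were higher than both Control rats for 6 over Ptprc (all but Mpo; 4.69%), for 4 over Cd68 (S100a8, S100a9, Cxcr2 and Csf3r; 2.03%) and for 5 over Lyz2 (these 4 and Mmp9; 1.86%). Mpo was lower in both treated rats than in both Control rats over Ptprc (1.94% of all genes), Cd68 (89.3%) and Lyz2 (81.2%), as was Ncf1 over Lyz2. For Mpo this rests on 0 TPM in both treated rats and on 0.03 and 0.17 TPM in Control rats. These ratios are given without a test: an exact permutation test of 2 rats against 2 cannot go below a two-sided p of 0.33, and no other test of them was run. Ptprc itself stood at 2.04 and 3.37 TPM in TP+hucMSC-Exs rats, 0.25 and 30.2 TPM in TP rats, and 0.09 and 3.92 TPM in Control rats, so the ratios of TP replicate 1 and Control replicate 1 rest on low values. Control replicate 2 also held lymphocyte genes, with 7.77 TPM of the B cell gene Cd79a against at most 1.97 TPM elsewhere. The other genes of the B and T cell list were highest there too, apart from Cd4 and Cd8a. These stood at 6.85 and 2.92 TPM there, against 47.9 and 53.25 TPM in TP replicate 2. The part of lymphocyte genes in the low ratio of Control replicate 2 was not tested.

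**Figure D3:**
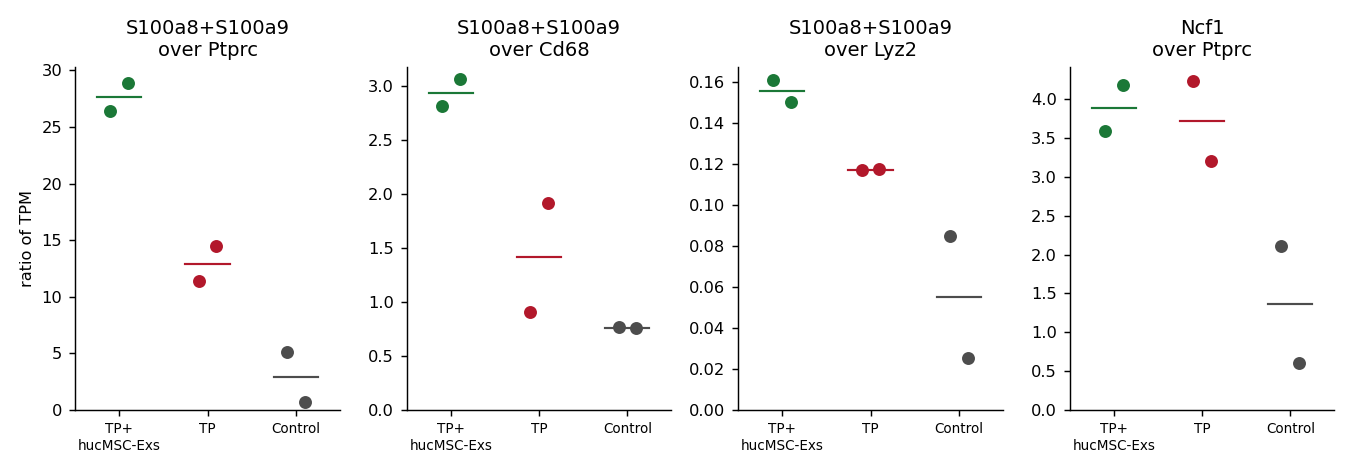
Ratio of TPM per library, from left to right S100a8 plus S100a9 over Ptprc, over Cd68 and over Lyz2, and Ncf1 over Ptprc, with a short line at each group mean. The TP+hucMSC-Exs points lie above the TP points in the first 3 panels and among them in the fourth.

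The other neutrophil genes were taken from lists by role. Of 15 further granule genes, 14 were in the table and 5 of these were listed at 0 in every library: Ctsg, Cd177 and the defensins Np4, Defa5 and RatNP-3b. Elane and Prtn3, proteases stored with Mpo, reached 0.38 and 0.25 TPM at most, and the lactoferrin gene Ltf 0.02 TPM. Camp, the cathelicidin, was listed at 0 and 0.07 TPM in TP+hucMSC-Exs rats, at 0 and 3.71 TPM in TP rats, and at 0 and 0.13 TPM in Control rats. Lcn2, lipocalin 2 of neutrophil granules and of injured epithelium, was the 1 gene of this list that passed, of 2 tested. It stood at 431 and 632 TPM in TP+hucMSC-Exs rats, 216 and 560.03 TPM in TP rats, and 2.88 and 2.78 TPM in Control rats. Against Control it rose by 7.29 ± 1.27 on the log2 scale in the TP+hucMSC-Exs group (SE, n = 2 per group; limma adjusted p = 1.95e-05) and by 6.71 ± 1.27 in the TP group (limma adjusted p = 0.000528). Over 15 alternatives, added after the data were seen, its fold change stayed positive but the call was lost under 6 in the TP+hucMSC-Exs group (limma adjusted p between 8.78e-07 and 0.970) and under 7 in the TP group (limma adjusted p between 4.33e-05 and 0.894), among them no filter, median-of-ratios scaling and the omission of either Control rat or either treated rat. Unlike calprotectin, Lcn2 was high in TP replicate 1; calprotectin over Lcn2 was 0.125 and 0.154 in TP+hucMSC-Exs rats, 0.0132 and 0.778 in TP rats, and 0.160 and 0.942 in Control rats. Padi4, which citrullinates histones, stood at 6.32 and 8.33 TPM in TP+hucMSC-Exs rats, 2.93 and 1.64 TPM in TP rats, and 1.88 and 2.71 TPM in Control rats (limma adjusted p = 1.0 against TP).

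Cybb, Cyba and Ncf4, oxidase partners of Ncf1, had its order of libraries. Rac2 did not, with 18.7 TPM in Control replicate 2 against 9.83 and 15.15 TPM in TP+hucMSC-Exs rats. The order among the injured libraries was also that of 75.9% of all genes tested. Cybb, the catalytic subunit, stood at 8.29 and 17.03 TPM in TP+hucMSC-Exs rats, at 2.11 and 139.73 TPM in TP rats, and at 0.44 and 2.43 TPM in Control rats. Cyba stood at 41.1 and 66.1 TPM in TP+hucMSC-Exs rats, at 7.03 and 384 TPM in TP rats, and at 2.01 and 11.2 TPM in Control rats. With limma 0 of the 4 oxidase genes tested passed in any of the 3 comparisons. In TP against Control, TP+hucMSC-Exs against TP, and TP+hucMSC-Exs against Control, 3, 0 and 3 had an unadjusted p below 0.05. Of all genes, 4.06%, 1.32% and 2.95% did. The medians of the 4 in these comparisons were 3.16, -0.32 and 2.97, against 1.495, -0.375 and 1.09 over all genes.

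Of 18 genes of the neutrophil surface and its signalling, 16 were tested and 0 passed in any comparison by limma. In the same order, 7, 0 and 5 had an unadjusted p below 0.05, against 4.06%, 1.32% and 2.95% of all genes. Their median log2 fold changes were 2.64, -0.20 and 2.36, against 1.495, -0.375 and 1.09 over all genes. Itgb2, the beta chain of leukocyte integrins, stood at 12.7 and 23.4 TPM in TP+hucMSC-Exs rats, 1.10 and 215 TPM in TP rats, and 0.13 and 5.30 TPM in Control rats. C5ar1, the receptor for complement C5a, stood at 9.64 and 17.7 TPM in TP+hucMSC-Exs rats, 0.92 and 113 TPM in TP rats, and 0.37 and 1.02 TPM in Control rats. Cxcr1, the other receptor of this chemokine class, was listed at 0 in all 6 libraries, and Fpr2 reached 0.19 TPM at most. The formyl peptide receptors were therefore near 0 as a pair.

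The cytokines that draw neutrophils were low outside TP replicate 2. Of 11 genes, 5 were tested and 0 passed in any comparison by limma, with 0 at an unadjusted p below 0.05, and Csf2, Il17a and Tnf were listed at 0 in every library. Il1b, interleukin 1 beta, stood at 1.18 and 2.56 TPM in TP+hucMSC-Exs rats, 0.24 and 26.7 TPM in TP rats, and 0.03 and 0.31 TPM in Control rats. Cxcl2, a ligand of Cxcr2, stood at 0.33 and 1.79 TPM in TP+hucMSC-Exs rats, 0.04 and 18.6 TPM in TP rats, and 0 and 0.04 TPM in Control rats. Cxcl1, Cxcl3 and Cxcl6, further ligands of Cxcr2, reached at most 8.68, 7.14 and 3.13 TPM, each in TP replicate 2. Medians of the 5 were 2.11, 0.03 and 2.14 in the 3 comparisons, against 1.495, -0.375 and 1.09 over all genes. Of all genes, 4.06%, 1.32% and 2.95% had a limma unadjusted p below 0.05. Csf3, the ligand of Csf3r, was listed at 0 in 5 libraries and at 0.13 TPM in TP replicate 2.

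**Figure D4:**
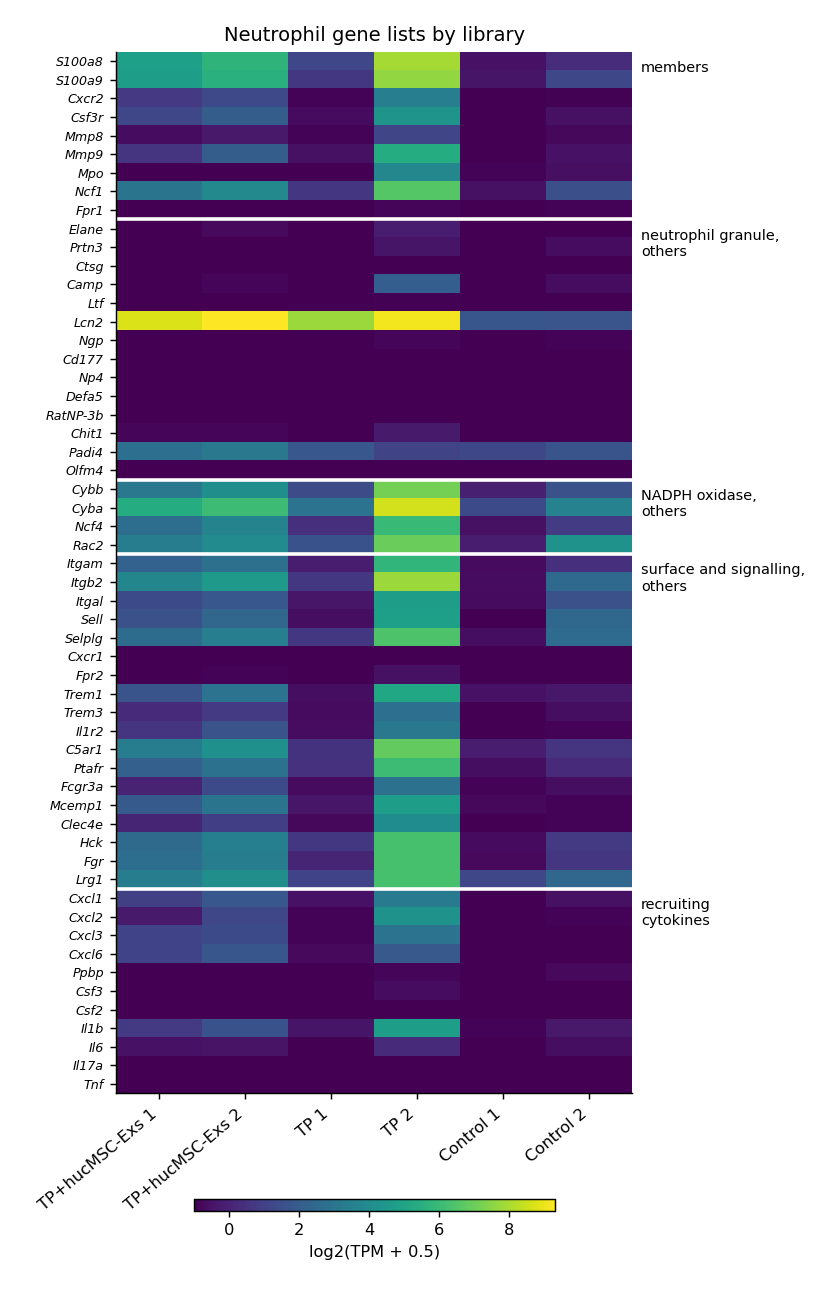
Heat map of log2(TPM + 0.5), with 1 row per gene and 1 column per library, for the 9 genes and the lists of other granule genes, oxidase subunits, surface and signalling genes, and recruiting cytokines. Most granule genes stay at the dark end in all libraries, Lcn2 is bright in TP replicate 1 where S100a8 and S100a9 are dark, and the oxidase and surface genes are brightest in TP replicate 2.

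Of the receptors for released calprotectin, Tlr4 stood at 0.56 and 1.41 TPM in TP+hucMSC-Exs rats, 0.08 and 6.23 TPM in TP rats, and 0.03 and 0.14 TPM in Control rats. Ager stood at 0.56 and 1.30 TPM in TP+hucMSC-Exs rats, 0.54 and 3.55 TPM in TP rats, and 0.93 and 1.06 TPM in Control rats. S100a6 and S100a4, relatives made by many cell types, were more abundant than calprotectin. S100a6 stood at 348 and 452 TPM in TP+hucMSC-Exs rats, 43.7 and 2222 TPM in TP rats, and 14.4 and 19.7 TPM in Control rats (limma adjusted p = 0.0885 for TP+hucMSC-Exs against Control). S100a4 stood at 82.5 and 142 TPM in TP+hucMSC-Exs rats, 12.9 and 1051 TPM in TP rats, and 1.47 and 8.86 TPM in Control rats. Of these 6 genes, all tested, 0 passed in any comparison by limma. At an unadjusted p below 0.05 there were 4, 0 and 4, against 4.06%, 1.32% and 2.95% of all genes. The medians were 3.27, 0.03 and 4.01, against 1.495, -0.375 and 1.09 over all genes.

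By summed TPM the macrophage and monocyte lists were higher in both treated rats than in both Control rats. The sums of the B and T cell, fat-cell, red cell, and mast cell and eosinophil lists were not. Gene by gene this held for 7 of 9 macrophage and 5 of 5 monocyte genes tested, against 86.9% of all genes. It held for 1 of 6 B and T cell genes and for 0 tested genes of the other 3 lists. For the limma counts that follow, 0.0523%, 0.0697% and 0.209% of all genes were called in the 3 comparisons. At an unadjusted p below 0.05 there were 4.06%, 1.32% and 2.95% of all genes. Lyz2 alone gave 335 and 649 TPM of the macrophage sum in TP+hucMSC-Exs rats. Summed over 10 macrophage genes, TPM was 423 and 776 in TP+hucMSC-Exs rats, 65.6 and 4817 in TP rats, and 24.0 and 159 in Control rats, with 9 tested and 0 called in any comparison (6, 0 and 2 at an unadjusted p below 0.05). The 5 monocyte genes found summed to 43.0 and 55.2 TPM in TP+hucMSC-Exs rats, 2.95 and 380 TPM in TP rats, and 0.70 and 2.62 TPM in Control rats, with 0 of 5 called (3, 1 and 3 unadjusted). The 8 B and T cell genes summed to 14.6 and 26.1 TPM in TP+hucMSC-Exs rats, 2.20 and 116 TPM in TP rats, and 1.27 and 41.4 TPM in Control rats, with 0 of 6 called (0, 0 and 1 unadjusted). The 6 fat-cell genes summed to 26.7 and 34.4 TPM in TP+hucMSC-Exs rats, 16.6 and 4104 TPM in TP rats, and 15.7 and 32.9 TPM in Control rats, with 0 of 6 called (5, 5 and 0 unadjusted). Red cell genes summed to 559 and 1365 TPM in TP+hucMSC-Exs rats, 836 and 8443 TPM in TP rats, and 441 and 2359 TPM in Control rats, with 0 of 4 called (0 in each unadjusted). Mast cell and eosinophil genes summed to 1.15 and 1.22 TPM in TP+hucMSC-Exs rats, 0.59 and 50.6 TPM in TP rats, and 0.70 and 2.00 TPM in Control rats, with 0 of 3 called (0 in each unadjusted). In TP replicate 2 every one of these lists was at its highest, and their part in the levels of the neutrophil genes there was not tested. In the treated libraries the mast cell and eosinophil sum lay within the range of the Control libraries. The fat-cell sum there reached 34.4 TPM, against 32.9 TPM in Control replicate 2. S100a8 and S100a9 lay above both Control libraries in both treated rats, as did 86.9% of all genes tested. The relation of these lists to calprotectin was not tested. Of 21 acinar genes tested, the trypsinogen gene Try5 rose in the TP+hucMSC-Exs group against TP, by 7.56 ± 1.19 on the log2 scale (SE, n = 2 per group; limma adjusted p = 2.69e-06), and against Control, by 5.26 ± 1.19 (limma adjusted p = 0.0134); the other 20 were not called. Of 14 alternatives, added after the data were seen, 4 ended the call of Try5 against TP (limma adjusted p up to 1.0) and 7 that against Control (limma adjusted p up to 1.0), in both cases among them the omission of either treated rat.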

How the data were processed

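RNA was extracted from pancreas with a column kit and libraries were made with a SMARTer mRNA kit, per the labels' protocols. The values deposited by the authors are TPM per gene, and each library's column sums to 1000000; their 3 group-mean columns were not tested. Mouse builds (GRCm38, mm10) are named in the submitters' processing notes, although 32883 of 34001 genes carry rat Ensembl identifiers, so no coordinates were taken from the table; the aligner is not given in the sources used here. Names of the TP columns hold a number whose meaning is unclear from the labels; these columns were assigned to TP by the rest of the name and the replicate number, so every TP value rests on that assignment. Depth is unknown. The gene list, the related lists and the tests were chosen with earlier results of these data known.

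Genes with a mean of at least 1 TPM over the 6 libraries, 11477 in all, were fitted as log2(TPM + 0.5) in 1 model with limma 3.58.1 (R 4.3.3), with a variance trend and 3 residual degrees of freedom, and genes with a Benjamini-Hochberg adjusted p below 0.05 were called. Prior degrees of freedom came out infinite, so genes of similar level share 1 variance, to which the TP libraries add most; the median SE was 1.43. TPM fold changes on this scale understate the change of low genes. Named genes were the 9, per related list those called and the 2 of highest mean TPM, and the 5 most like calprotectin. Genes named at 0 or at a maximum were chosen after their values were seen. So were Cxcl1, Cxcl3, Cxcl6, Csf3, Camp, Tlr4, Ager, Fpr2, Cd79a, Ncf4 and Rac2. Promoters came from RefSeq (GRCr8).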

Additional observations from a re-analysis of the deposited data

How the results depend on the processing

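With 2 libraries per group and no read depth, only changes of several log2 units could pass, and no counting error is known. The number of genes called in TP against Control, 6 as reported, was 14 with a pseudocount of 0.1, 0 with no filter (limma, 160 at an unadjusted p below 0.05), 0 with median-of-ratios scaling (668 unadjusted), 2 with TPM rescaled without the acinar list and 0 with only the groups compared (85 unadjusted); leaving out 1 library gave 0 to 10706. In TP+hucMSC-Exs against TP, 8 as reported, it was 0 with no filter (315 unadjusted), 2 with median-of-ratios scaling, 3 without the acinar list and 1 with only the groups compared; leaving out 1 library gave 0 to 9537. In TP+hucMSC-Exs against Control, 24 as reported, it was 12 with a pseudocount of 1, 0 with no filter (368 unadjusted), 2 with median-of-ratios scaling, 9 without the acinar list and 6056 with only the groups compared; leaving out 1 library gave 1 to 6031. Of the 7 neutrophil genes tested, leaving out 1 library called 0 to 7 in TP against Control, 0 to 7 in TP+hucMSC-Exs against TP and 0 to 6 in TP+hucMSC-Exs against Control. In that last comparison 1, S100a8, was also called with a pseudocount of 0.1, where 36 of 11477 genes (0.314%) were called, and with a mean TPM of at least 5, where 25 of 5365 (0.466%) were; 6 were called with only the groups compared (52.8% of all genes). Fits without a TP library leave the difference between the TP libraries out of the variance, and a lone library was assumed to vary like the other groups. Same-numbered libraries share only a number: their deviations correlated at 0.135, 0.0804 and 0.279 between the 3 pairs of groups. With the replicate block 10, 22 and 35 genes were called in the 3 comparisons, and 1 of the 7 neutrophil genes, S100a8, in TP+hucMSC-Exs against Control (limma adjusted p = 0.0264, with 0.305% of all genes called). Mean calprotectin with TPM rescaled without the acinar list was 181.5 TPM in the TP+hucMSC-Exs group and 6.24 TPM in the Control group. In TP replicates 1 and 2 it was 2.85 and 435.94 TPM before rescaling, which multiplied these values by 3.39 and 1.24.

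Direction turned mostly in TP+hucMSC-Exs against TP. Cxcr2 was 0.46 and Csf3r 0.38 on the log2 scale with a pseudocount of 0.1; Cxcr2, Csf3r and Ncf1 were 0.50, 0.49 and 0.22 with median-of-ratios scaling, and 0.56, 0.53 and 0.19 without the acinar list. Without TP+hucMSC-Exs replicate 1 they were 0.05, 0.22 and 0.25, and without TP replicate 2 they were 1.91, 2.32 and 2.78, with Mmp9 at 1.84, Mpo at 0.00, S100a8 at 4.08 and S100a9 at 4.47. Without TP replicate 1 S100a8 was -2.64, S100a9 -2.49, Cxcr2 -2.40, Csf3r -2.70, Mmp9 -4.06, Mpo -4.78 and Ncf1 -3.19. Mpo in TP against Control was -0.25 without TP replicate 2 and 4.53 without TP replicate 1. Relative to the median gene, S100a8 in TP+hucMSC-Exs against TP was 1.09 with all libraries and -0.76 without TP replicate 1. Beyond what was given for the TP libraries, the cause was not tested.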
